A study of Homo sapiens with 6 samples.

Results

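The chaperones of the endoplasmic reticulum (ER) lumen and the cofactors that serve them were examined as mRNA in MM1.S cells treated with inhibitors of PDIA1, a protein disulfide isomerase of the same compartment. The group was a written list of 10 genes, HSPA5, HYOU1, FICD, HSP90B1, CALR, CANX, SDF2L1, CRELD2, MANF and PPIB, and all 10 were among the 11048 gene symbols in the deposited table. The lowest value of any of them in a library was 16.4 CPM, where CPM is the reads on a gene scaled to a common library total. MM1.S is a human multiple myeloma line, a cancer of the antibody-secreting plasma cell. The cells received the solvent DMSO, 3 µM CCF642 or 3 µM CCF642-34, an analogue of CCF642, for 6 h, and polyadenylated RNA was sequenced from 2 libraries per group. All groups were the same cell line at a single dose and time, so no dose or time course exists for these genes.

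The ER lumen is where secreted and membrane proteins fold. HSPA5 (also called GRP78 or BiP) is its HSP70 chaperone, which binds exposed hydrophobic stretches in cycles of ATP hydrolysis, and HSP90B1 (GRP94) is its HSP90 chaperone. CALR and CANX are lectins that hold glycoproteins carrying a trimmed sugar chain, while smaller proteins exchange nucleotide on HSPA5, modify it or isomerise proline bonds. Plasma cells carry large amounts of these proteins because they fold immunoglobulin, and many of the genes are textbook targets of the unfolded protein response, in which the transcription factors ATF6 and XBP1 bind ER stress elements in promoters.

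Depth did not limit the measurements. The libraries held between 20567313 and 28459677 reads, and the lowest number of reads on any of the 10 genes was 352, for FICD in a DMSO library, where counting alone gives an error of 5.33%. The protocol names no molecular identifiers, without which reads are not independent molecules, and this error leaves out everything but counting. All 8 plasma cell markers examined were listed, at a summed 4754 to 5077 CPM per library. The summed level hides opposite movements, since SDC1 was at 851 to 870 CPM with DMSO, 239 to 252 CPM with CCF642 and 359 to 383 CPM with CCF642-34, and IRF4 stood higher with both compounds. Of 14 markers of T, myeloid, erythroid and stromal cells, 3 were listed, CD3E and HBB at no more than 4.86 CPM in any library and COL1A1 at no more than 10.5 CPM, and the remaining 11 were not in the table. Values in CPM are as deposited. Fold changes are from limma on log2 of CPM plus 1, after TMM scaling (trimmed mean of M-values, which sets aside the genes that differ most before it equalises libraries), with Benjamini-Hochberg adjustment over all 11048 genes, and an adjusted p under 0.05 is called a change. The TMM step matters for small changes: with library size alone the median over the 11048 genes shifted to −0.13 (log2) with CCF642 and −0.078 with CCF642-34, against −0.0066 and 0.0067 after TMM scaling.

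Treatment with either compound raised most of the chaperone mRNAs, by widely differing amounts. With CCF642, 8 of the 10 genes rose and none fell, where 31.8% of all genes rose and 31.3% fell, and CALR and CANX did not pass the test. In these bulk libraries a change can come from the RNA of each cell or from the make-up of the culture, and fewer cells of a kind and less RNA per cell cannot be told apart. With CCF642-34, 9 of the 10 rose and none fell, where 29.7% of all genes rose and 27.9% fell, and HSP90B1 did not pass. The same 4 genes, FICD, HSPA5, HYOU1 and MANF, rose by at least 1.5-fold with each compound, a size reached by 11.5% of all genes with CCF642 and 8.14% with CCF642-34. Increases of at least 2-fold were those of FICD and HSPA5 with CCF642, against 4.5% of all genes, and of FICD with CCF642-34, against 2.59%. The median log2 fold change of the 10 genes was 0.39 with CCF642 and 0.41 with CCF642-34. With library size alone, 7 rose and 1 fell (CALR) with CCF642, 8 rose with CCF642-34, and only FICD and HSPA5 kept an increase of at least 1.5-fold with CCF642. These counts include changes as small as 6.91% (CALR with CCF642-34), because the test across all genes passed 63.1% of them with CCF642 and 57.6% with CCF642-34.

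**Figure D1:**
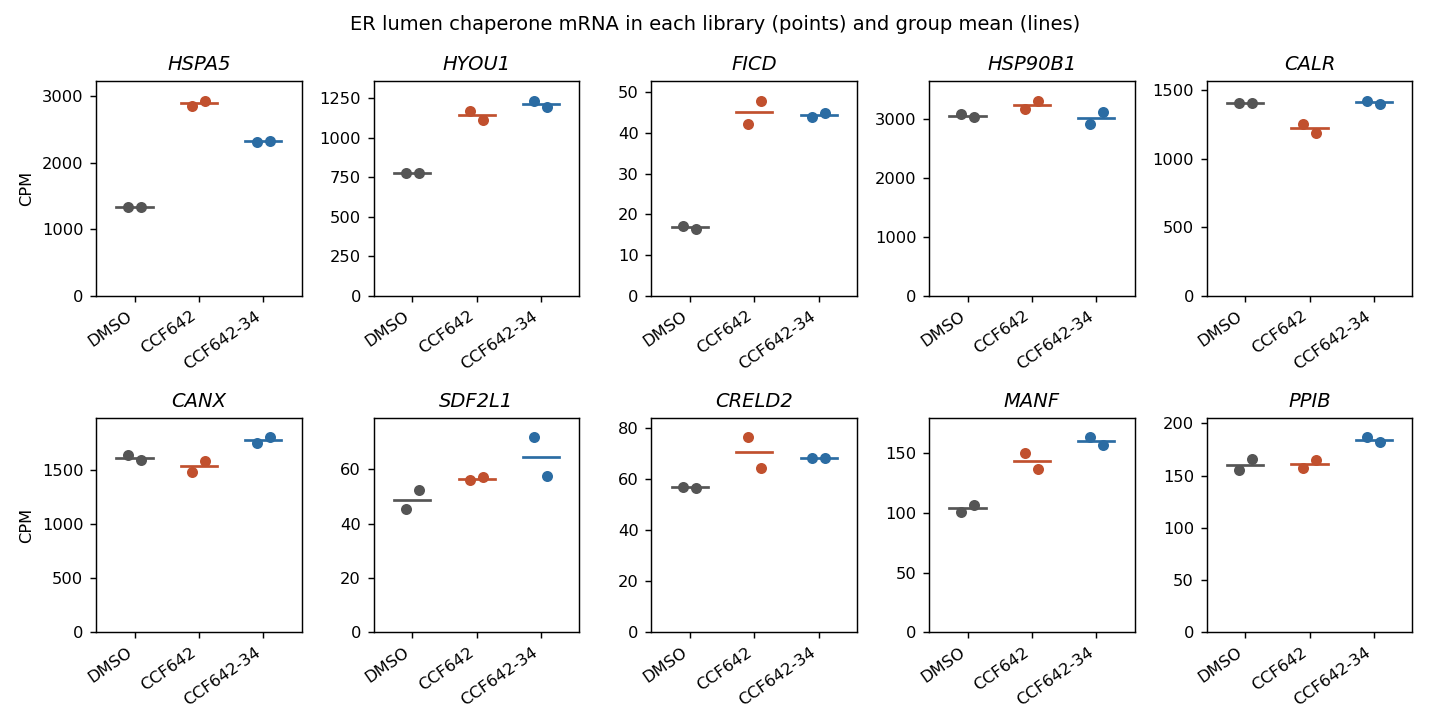
CPM of the 10 ER lumen chaperone genes in each library (points, 2 per group) with the group mean (lines), each panel with its own vertical axis from 0. HSPA5 stood at 1328 and 1331 CPM with DMSO, at 2854 and 2934 CPM with CCF642 and near 2320 CPM with CCF642-34, whereas HSP90B1 stayed between 2909 and 3312 CPM in all 6 libraries.

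Before the single genes, their promoters are shown, since shared ER stress elements are what several of these genes are known for. RefSeq windows from 250 bases before to 50 bases after each annotated start site (GRCh38.p14) were searched on both strands for the exact ER stress element (ERSE, CCAAT and CCACG with any 9 bases between them), for ERSE-II (ATTGG, any base, then CCACG) and for the core of the unfolded protein response element, TGACGTGG. All 10 genes were in the table, with 13 windows. ERSE was found in 8 of the 13 windows, which belong to 6 of the 10 genes, against 27 of all 35116 promoters (0.077%), which belong to 25 of 27305 genes. ERSE-II was found in the windows of HYOU1 and SDF2L1, against 19 of all promoters (0.054%). TGACGTGG was found in HYOU1 alone of the 10, where it overlaps the upstream ERSE-II, and in 0.729% of all promoters. Among the genes of the deposited table that had a window, the shares were 0.18% for ERSE, 0.158% for ERSE-II and 1.25% for TGACGTGG. All these totals include the 10 genes themselves. The elements were chosen because several of these genes are known for them, so the contrast is no test. MANF and PPIB held none of these 3 elements in the window, though both held CCAAT and CCACG apart. The blocks alone are common, CCAAT being in 34.6% and CCACG in 38.1% of all promoters, so the rarity lies in their spacing. The stretches that hold the matches are printed 5′ to 3′ on the strand of the gene, with the fixed letters of the element in capitals. CCAAT with CCACG marks the forward orientation of ERSE, CGTGG with ATTGG its reverse, and CGTGG followed by CCAAT the reverse of ERSE-II.
HSPA5: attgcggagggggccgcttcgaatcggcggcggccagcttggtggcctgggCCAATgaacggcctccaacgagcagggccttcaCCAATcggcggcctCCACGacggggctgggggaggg
HYOU1 upstream: cgtgaCGTGGtCCAATcccag
HYOU1 downstream: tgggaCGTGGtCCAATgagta
FICD: aacaaCCAATgggagtggcCCACGgcgcg
HSP90B1 upstream: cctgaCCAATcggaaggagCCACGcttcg
HSP90B1 downstream: gggtgCGTGGtgcggcgcgATTGGtgggt
CALR: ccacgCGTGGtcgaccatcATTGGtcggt
CANX: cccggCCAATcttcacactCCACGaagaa
SDF2L1: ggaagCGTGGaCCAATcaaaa
CRELD2: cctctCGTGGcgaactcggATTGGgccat

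The HSPA5 stretch is longer than the others (chr9:125241374-125241493, minus strand, 150 to 31 bases before the start) because it shows the exact ERSE beside a further CCAAT that is followed, at the ERSE spacing, by letters other than CCACG. The HYOU1 copies lie at chr11:119057375-119057395 and chr11:119057269-119057289 on the minus strand, and the HSP90B1 copies at chr12:103930211-103930239 and chr12:103930316-103930344 on the plus strand, in opposite orientations. The FICD stretch is at chr12:108515118-108515146, that of CALR at chr19:12938379-12938407, that of SDF2L1 at chr22:21642109-21642129 and that of CRELD2 at chr22:49918549-49918577, all on the plus strand. The CANX stretch (chr5:179698773-179698801, plus strand) fell within the windows of 3 of its 4 annotated start sites, so its 3 matches are the same bases. Across the whole table, 44 of 27305 genes held an exact ERSE or ERSE-II, 8 of the 10 chaperones and 3 of the 50 searched genes of the related lists described further on (PDIA6, XBP1 and HERPUD1) among them. These lists name 55 genes, of which DNAJC1, MOGS, PDIA3, FKBP10 and FKBP14 had no window and were not searched.

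**Figure D2:**
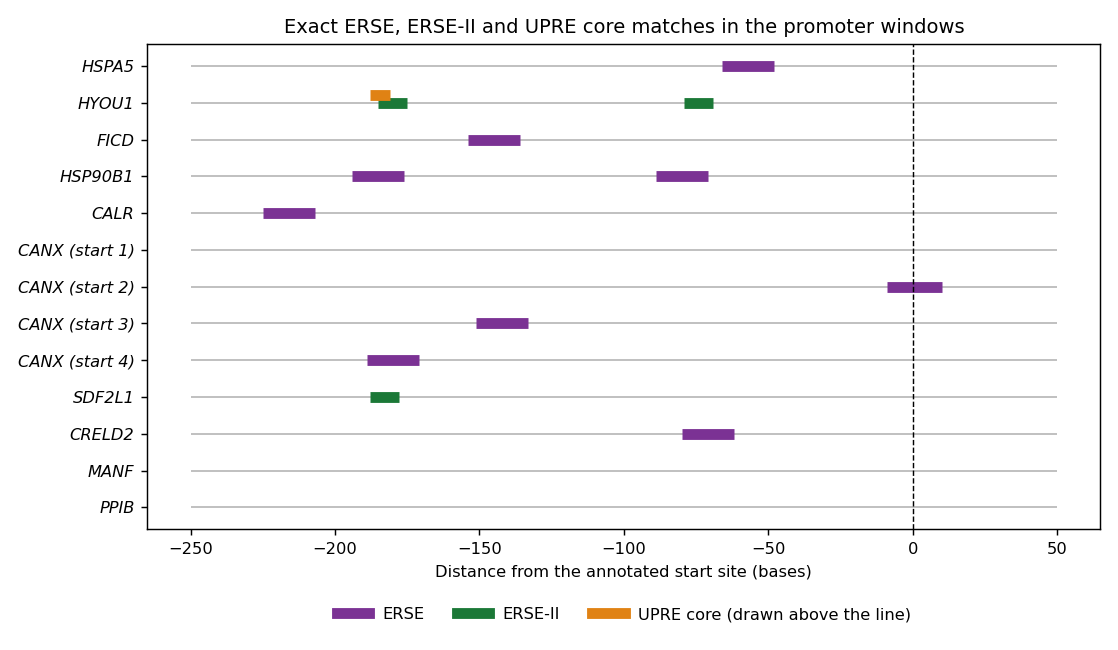
Positions of exact ERSE, ERSE-II and TGACGTGG matches (coloured bars) in each promoter window, as distance in bases from the annotated start site (dashed line), with 1 row per window and the 4 windows of CANX apart. ERSE or ERSE-II lies in 8 of the 10 genes, and the rows of MANF, PPIB and the first CANX start site are empty.

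The log2 fold changes of the chaperones without a match lay within the range of those with one. Only 2 genes lacked a match, too few to tell whether a match goes with the change. The 8 genes with ERSE or ERSE-II had log2 fold changes from −0.070 to 1.495 with CCF642 (median 0.39) and from 0.068 to 1.44 with CCF642-34 (median 0.41). The pair without a match, MANF and PPIB, had 0.60 and 0.14 with CCF642 and 0.71 and 0.29 with CCF642-34. Of 22 other listed genes with a match, 12 rose and 2 fell with CCF642, with a median of 0.19, and 11 rose and 1 fell with CCF642-34, with a median of 0.22. Of all genes, 31.8% rose and 31.3% fell with CCF642, and 29.7% rose and 27.9% fell with CCF642-34. The sequence is described only and says nothing of which factor was bound in these cells.

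HSPA5, which rose with both compounds, was at 1331 and 1328 CPM with DMSO, 2854 and 2934 CPM with CCF642, and 2308 and 2332 CPM with CCF642-34. The 3 groups did not overlap, and replicates differed by no more than 2.75%. The log2 fold change against DMSO was 1.26 with CCF642 (SE 0.034, limma adjusted p = 8.85e-34), which is 2.39-fold with a 95% interval of 2.28 to 2.50. With CCF642-34 it was 0.89 (SE 0.034, limma adjusted p = 1.91e-27), or 1.86-fold with an interval of 1.77 to 1.95. Of all genes, 97.4% had a lower log2 fold change than HSPA5 with CCF642 and 96.5% with CCF642-34. HSPA5 lies on chromosome 9 (GENCODE 29, GRCh38, 125234853 to 125241330, minus strand).

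HYOU1 (GRP170) is a large HSP70 relative that exchanges nucleotide on HSPA5 and also holds unfolded chains. Its level was 779 and 777 CPM with DMSO, 1172 and 1113 CPM with CCF642, and 1236 and 1194 CPM with CCF642-34. Both treated groups lay above DMSO in every library, and the compounds differed little from each other. The log2 fold change was 0.69 with CCF642 (limma adjusted p = 5.31e-22) and 0.73 with CCF642-34 (limma adjusted p = 7.59e-23), each with SE 0.036. Since HSPA5 rose further, the ratio of HYOU1 to HSPA5 reads in a library went from 0.585 in each DMSO library to 0.411 and 0.379 with CCF642 and to 0.536 and 0.512 with CCF642-34.

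FICD, an ER enzyme that attaches and removes AMP on HSPA5 and so switches the chaperone off and on, had the largest fold change of the 10 with each compound and the lowest level. It was at 17.2 and 16.4 CPM with DMSO, 42.2 and 47.9 CPM with CCF642, and 43.9 and 45.0 CPM with CCF642-34. Every treated library was above every DMSO library, and the ranges of the compounds overlapped. The log2 fold change was 1.495 with CCF642 (SE 0.082, limma adjusted p = 4.02e-21), or 2.82-fold, and 1.44 with CCF642-34 (limma adjusted p = 3.13e-20), or 2.70-fold. Of all genes, 98.3% had a lower log2 fold change than FICD with CCF642 and 99.0% with CCF642-34. Relative to the reads of its substrate HSPA5, FICD went from 0.0129 and 0.0124 with DMSO to 0.0148 and 0.0163 with CCF642 and to 0.0190 and 0.0193 with CCF642-34. On the opposite strand FICD overlaps exons of SART3, an RNA-binding protein gene, at 147 and 146 CPM with DMSO, 213 and 211 CPM with CCF642, and 209 and 203 CPM with CCF642-34. Whether the counting used strand is not given in the sources used here, so reads of the overlap cannot be told apart, and the log2 fold changes of SART3 (0.67 and 0.58) were smaller than those of FICD.

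HSP90B1, the HSP90 of the ER and the chaperone of Toll-like receptors and integrins, was the most highly read of the 10 and the ninth of all genes by mean CPM. It was at 3078 and 3036 CPM with DMSO, 3174 and 3312 CPM with CCF642, and 2909 and 3115 CPM with CCF642-34. The CCF642-34 libraries lay on both sides of the DMSO libraries. The log2 fold change was 0.22 with CCF642 (SE 0.035, limma adjusted p = 4.50e-07), a rise of 16.4%, and 0.068 with CCF642-34 (limma adjusted p = 0.0945), with a 95% interval of −0.19% to 10.0%. With library size alone the CCF642 value was 0.085 (limma adjusted p = 0.026) and the CCF642-34 value turned to −0.022. The 2 major ER chaperones therefore moved by unequal amounts: the ratio of HSPA5 to HSP90B1 reads was 0.432 and 0.437 with DMSO, 0.899 and 0.886 with CCF642, and 0.793 and 0.749 with CCF642-34. This ratio is taken within a library and does not depend on scaling. GENCODE lists 2 processed pseudogenes of HSP90B1, HSP90B2P and HSP90B3P, and how reads shared with them were counted is not given in the sources used here.

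Of the lectin chaperones, CANX and CALR rose with CCF642-34, CALR without a call by library size alone, and neither passed the test with CCF642. CALR, the soluble lectin, which also stores calcium, was at 1408 and 1407 CPM with DMSO, 1254 and 1190 CPM with CCF642, and 1426 and 1402 CPM with CCF642-34. Both CCF642 libraries were below DMSO, and the CCF642-34 libraries straddled it. After TMM scaling the log2 fold change was −0.070 with CCF642 (SE 0.035, limma adjusted p = 0.0768) and 0.096 with CCF642-34 (limma adjusted p = 0.0166). Both calls depend on scaling, since with library size alone CALR fell by 0.20 with CCF642 (limma adjusted p = 1.41e-06) and had 0.0065 with CCF642-34 (limma adjusted p = 0.887). They also depend on single libraries: CALR passed as lower with CCF642 without CCF642 replicate 1 (−0.10, limma adjusted p = 0.00558), and with CCF642-34 it no longer passed without either DMSO replicate or CCF642-34 replicate 1 (limma adjusted p between 0.119 and 0.139). CANX, the membrane-bound lectin, was at 1637 and 1596 CPM with DMSO, 1487 and 1587 CPM with CCF642, and 1757 and 1806 CPM with CCF642-34. The log2 fold change was 0.060 with CCF642 (limma adjusted p = 0.138; −0.074 with library size alone) and 0.23 with CCF642-34 (limma adjusted p = 3.28e-07), the latter an increase under each scaling. The ratio of CALR to HSPA5 reads went from 1.06 in each DMSO library to 0.439 and 0.406 with CCF642 and 0.618 and 0.601 with CCF642-34. That of CALR to CANX moved less, from 0.860 and 0.881 with DMSO to 0.843 and 0.750 with CCF642 and 0.812 and 0.776 with CCF642-34. Each treated library was below both DMSO libraries in that ratio.

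**Figure D3:**
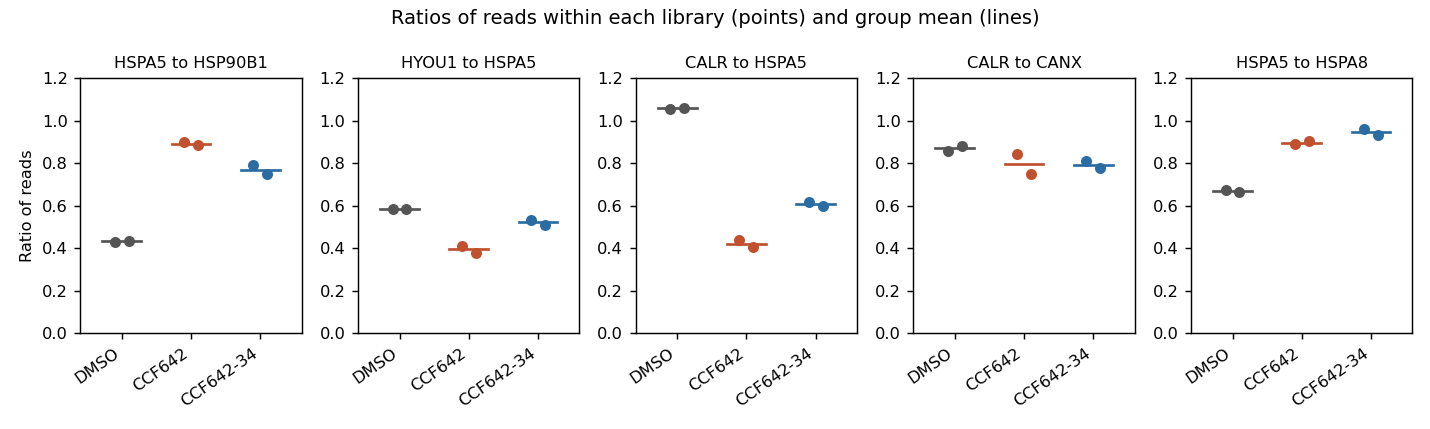
Ratios of reads between gene pairs within each library (points, 2 per group) with the group mean (lines), on an axis from 0 to 1.2. HSPA5 to HSP90B1 rises from a mean of 0.435 with DMSO to 0.892 with CCF642 and 0.771 with CCF642-34, while CALR to CANX has means of 0.871, 0.797 and 0.794.

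The small cofactors rose with both compounds, from levels below those of HSPA5, HYOU1, HSP90B1, CALR and CANX. MANF, a secreted and ER-resident protein that binds HSPA5 and protects cells under ER stress, was at 101 and 107 CPM with DMSO, 150 and 137 CPM with CCF642, and 163 and 156 CPM with CCF642-34. Every treated library was above both DMSO libraries, and the log2 fold change was 0.60 with CCF642 (limma adjusted p = 4.45e-14) and 0.71 with CCF642-34 (limma adjusted p = 2.23e-16). CRELD2, a cysteine-rich EGF-like protein of the ER, was at 56.9 and 56.6 CPM with DMSO, 76.3 and 64.4 CPM with CCF642, and 68.1 and 68.1 CPM with CCF642-34. Its CCF642 replicates were 16.8% apart, and the log2 fold change was 0.43 with CCF642 (limma adjusted p = 1.74e-07) and 0.35 with CCF642-34 (limma adjusted p = 1.44e-05). CRELD2 overlaps ALG12 on the opposite strand, which had similar changes (0.43 and 0.38), so reads of the overlap cannot be told apart. SDF2L1, which pairs with the J-domain protein DNAJB11, was at 45.2 and 52.3 CPM with DMSO, 56.0 and 57.2 CPM with CCF642, and 71.8 and 57.3 CPM with CCF642-34. Its replicates were 14.5% apart in the DMSO group, 2.16% under CCF642 and 22.3% under its analogue, and the log2 fold change was 0.35 (limma adjusted p = 0.000105) and 0.48 (limma adjusted p = 4.63e-07). These p-values lean on the spread shared by all genes more than on its own replicates.

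PPIB (cyclophilin B), which isomerises proline bonds in secreted proteins, changed least among the genes called with both compounds. It was at 156 and 165 CPM with DMSO, 157 and 165 CPM with CCF642, and 187 and 182 CPM with CCF642-34. The CCF642 libraries lay within the range of the DMSO libraries before TMM scaling. Its log2 fold change of 0.14 with CCF642 (limma adjusted p = 0.0119) came to 0.0033 with library size alone (limma adjusted p = 0.954), and it also failed the test without DMSO replicate 1 (0.093) or CCF642 replicate 2 (0.097). The log2 fold change of 0.29 with CCF642-34 (limma adjusted p = 1.23e-06) passed under each alternative. PPIB overlaps SNX22, which was at no more than 13.8 CPM, on the opposite strand.

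In all, reads on the 10 genes made up 0.858% of a library with DMSO, 1.05% with CCF642 and 1.03% with CCF642-34. With DMSO they summed to 8576 ± 48.8 CPM, and this sum reached 10515 ± 132 CPM under CCF642 and 10264 ± 134 CPM under CCF642-34 (SD, n = 2). Of 1939 CPM gained with CCF642, HSPA5 accounted for 1564 and HYOU1 for 365, while CALR and CANX were lower in CPM. Of 1689 CPM gained with CCF642-34, HSPA5 accounted for 991, HYOU1 for 438 and CANX for 165. Each gain is net of the genes that fell, so a share of the gain can exceed the share of the rises alone. These amounts also depend on scaling. On TMM-scaled CPM, computed after these sums had been seen, the gain was 2816 with CCF642 and 2230.5 with CCF642-34, and the share of HSPA5 in it was 62.3% and 48.5%, in place of 80.7% and 58.7%. On that scale CANX was higher by 66.5 with CCF642, HSP90B1 was higher by 477 in place of 186 with CCF642, and with CCF642-34 it was higher by 141 in place of lower. Without HSPA5, the other 9 genes summed to 7246 ± 46.3 CPM with DMSO, to 7621 ± 75.3 CPM under CCF642 and to 7944 ± 117 CPM under CCF642-34 (SD, n = 2).

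Levels can be ordered between genes only per length, here as CPM per kilobase of the longest coding transcript in GENCODE 29. With DMSO the order was HSP90B1 (1070 ± 10.4 CPM per kilobase), CALR (740 ± 0.577), CANX (380 ± 6.79), HSPA5 (340 ± 0.640), HYOU1 (172 ± 0.344), PPIB (149 ± 6.31), MANF (90.0 ± 3.53), SDF2L1 (56.3 ± 5.79), CRELD2 (36.0 ± 0.139) and FICD (5.03 ± 0.164) (SD, n = 2). HSPA5 passed CANX with both compounds and CALR with CCF642, at 740 ± 14.4 CPM per kilobase against 642.1 ± 23.5 for CALR, and stood at 594 ± 4.49 against 743 ± 8.98 for CALR with CCF642-34. Each pair of neighbours in the DMSO order, and each of these pairs, was apart by more than the sum of the SDs, which is no test. The length used matters: with the length of all exons joined, HSPA5 (340) was already above CANX (259) with DMSO and SDF2L1 (44.3) was above MANF (43.5). By that length HSPA5 was also above CALR with CCF642-34 (594 against 521) and above HSP90B1 with CCF642 (740 against 691).

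The compounds were then compared directly, as 1 pair at the same dose and time. Of the 10 genes, 3 were higher with CCF642-34 than with CCF642 (CALR, CANX and PPIB) and 2 were lower (HSPA5 and HSP90B1), where 33.4% of all genes passed, 15.9% higher and 17.4% lower. HSPA5 was lower with CCF642-34 by 22.2%, with a 95% interval of 18.5% to 25.8% (log2 fold change −0.36, limma adjusted p = 3.30e-12). The other 4 differences lay between −9.97% and 12.5%. The difference of HSPA5 kept its direction and passed in every alternative run. HSP90B1 differed by −0.15 (limma adjusted p = 0.000618), CALR by 0.17 (limma adjusted p = 0.00019), CANX by 0.17 (limma adjusted p = 0.0002) and PPIB by 0.15 (limma adjusted p = 0.0115) on the log2 scale. Without CCF642-34 replicate 1, HSP90B1 (−0.11) and PPIB (0.13) no longer passed, which left 3 of the 10 genes, while 2470 in place of 3685 of all genes passed in that fit, and PPIB (0.11) also failed without CCF642 replicate 1.

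No difference between the compounds was detected for the other 5 genes, and the intervals say how large one could be. For HYOU1 the log2 difference was 0.045, with a 95% interval of −0.027 to 0.12, and it passed the test with library size alone (0.089, limma adjusted p = 0.0436). For MANF it was 0.11, with an interval of 0.0063 to 0.22 (limma adjusted p = 0.0959), and it too passed with library size alone (0.15, limma adjusted p = 0.0174) and without CCF642 replicate 1 (0.17, limma adjusted p = 0.0119). FICD had −0.060, with an interval of −0.23 to 0.11, SDF2L1 had 0.13, with an interval of −0.018 to 0.29, and CRELD2 had −0.086, with an interval of −0.22 to 0.047. These 3 turned in sign when 1 library was left out, to 0.034 for FICD without CCF642 replicate 2, to −0.027 for SDF2L1 without CCF642-34 replicate 1 and to 0.030 for CRELD2 without CCF642 replicate 1. A difference passed for SDF2L1 without CCF642-34 replicate 2 (0.30, limma adjusted p = 0.0135) and for CRELD2 without CCF642 replicate 2 (−0.20, limma adjusted p = 0.0218).

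**Figure D4:**
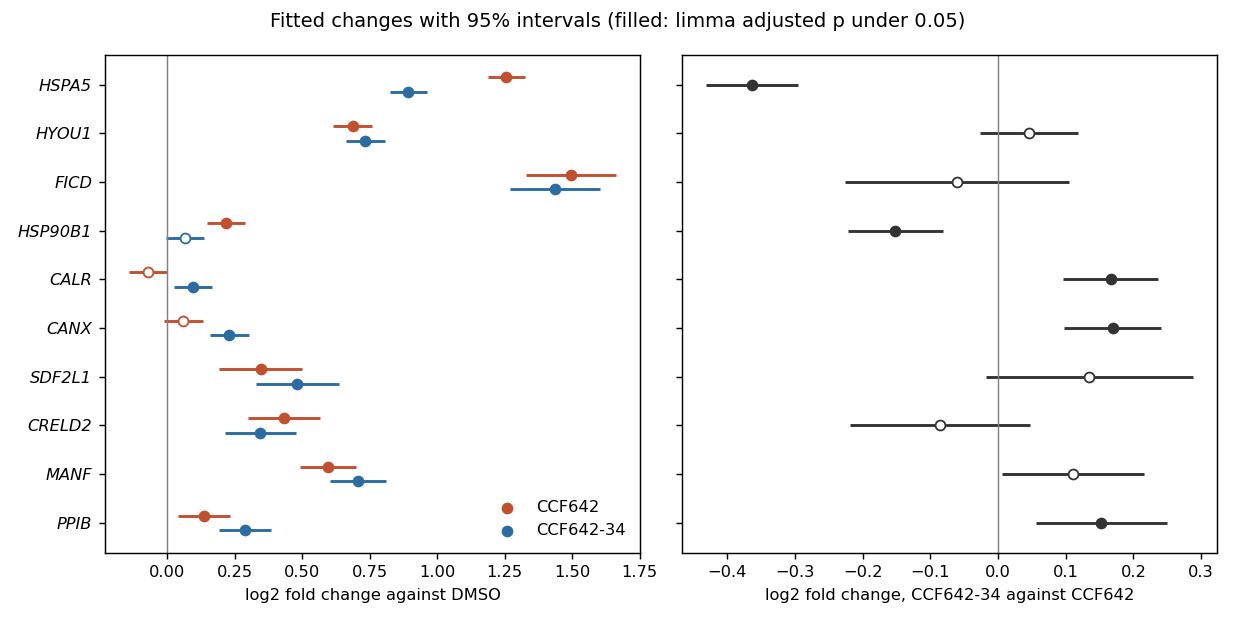
Fitted log2 fold changes of the 10 genes with 95% intervals after TMM scaling, against DMSO for each compound (left) and for CCF642-34 against CCF642 (right), with filled points at a limma adjusted p under 0.05. HSPA5 and FICD lie farthest from 0 on the left, and HSPA5 at −0.36 lies farthest on the right; with library size alone CANX with CCF642 and HSP90B1 with CCF642-34 change sign.

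Genes that work beside these chaperones were read from 6 lists, to be set against all 11048 genes, of which 31.8% rose and 31.3% fell with CCF642 (median −0.0066) and 29.7% rose and 27.9% fell with CCF642-34 (median 0.0067). Of the HSP70 and HSP90 partners of the ER, 10 of 11 were listed, and 5 rose and 1 fell with CCF642 (median log2 fold change 0.10), while 7 rose with CCF642-34 (median 0.29). DNAJB9, a J-domain protein that brings clients to HSPA5, rose further than any of the 10 chaperones, from 186 and 175 CPM with DMSO to 632 and 596 CPM with CCF642 and 595 and 626 CPM with CCF642-34, with log2 fold changes of 1.89 (limma adjusted p = 1.45e-37) and 1.84 (limma adjusted p = 9.37e-37). The J-domain proteins DNAJC3 (0.50 and 0.58) and DNAJB11 (0.42 and 0.52) rose with CCF642 and CCF642-34, and DNAJC10, which reduces disulfides, fell by 0.10 with CCF642. SIL1, the second nucleotide exchange factor of HSPA5 besides HYOU1, had −0.026 with CCF642 (limma adjusted p = 0.771) and rose by 0.23 with CCF642-34 (limma adjusted p = 0.00578).

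In the glycoprotein folding cycle, where CALR and CANX act, 3 of 9 genes rose and 2 fell with CCF642 (median −0.044), and 3 rose and 1 fell with CCF642-34 (median 0.011). CLGN, a testis relative of CANX, rose by 0.35 and 0.48 and the cargo lectin LMAN1 by 0.28 and 0.41, while the lectin MLEC fell by 0.52 and 0.39 and the glucosidase subunit GANAB fell by 0.15 with CCF642. With library size alone 5 of the 9 fell with CCF642 and 4 with CCF642-34. Of the ER prolyl isomerases and collagen chaperones, 8 of 10 were listed, and 2 rose and 2 fell with CCF642 (median 0.051), while 4 rose with CCF642-34 (median 0.078). SERPINH1, the collagen chaperone HSP47, rose by 1.24 and 0.93 from about 10 CPM, and the isomerase FKBP14 by 1.05 and 0.91, whereas FKBP9 (−0.68) and CRTAP (−0.21) fell with CCF642. COL1A1, which encodes the collagen chain that SERPINH1 binds and is a stromal marker, was at 1.09 and 1.495 CPM with DMSO, 8.99 and 10.5 CPM with CCF642, and 2.74 and 3.53 CPM with CCF642-34, while the stromal markers COL1A2 and DCN were not in the table; the part of other cells in these changes was not tested.

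Among the major disulfide isomerases, 2 of 6 rose and 2 fell with CCF642 (median −0.016), and 4 rose with CCF642-34 (median 0.19), where 31.8% and 29.7% of all genes rose. P4HB, the gene of the drug target PDIA1, was at 1640 and 1690 CPM with DMSO, 1594 and 1656 CPM with CCF642, and 1756 and 1742 CPM with CCF642-34, with log2 fold changes of 0.099 (limma adjusted p = 0.0116) and 0.16 (limma adjusted p = 9.36e-05). PDIA5 rose with both compounds (0.25 and 0.28) and PDIA4 with CCF642-34 (0.22), while TXNDC5 (−0.67) and PDIA6 (−0.11) fell with CCF642. With library size alone, 0 of the 6 rose and 3 fell with CCF642, while 3 rose and 1 fell with CCF642-34 (median 0.096).

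Regulators of the unfolded protein response held the largest increases of the 6 lists. Of 11 listed, 8 rose and 2 fell with CCF642 (median 0.43), and 6 rose and 2 fell with CCF642-34 (median 0.66). The largest increases were those of DDIT3 (CHOP), a pro-apoptotic factor (3.42 and 3.32), and of the kinase EIF2AK3 (1.92 and 1.54). HERPUD1, an ER-associated degradation factor whose promoter holds an ERSE-II, was at 1395 and 1393 CPM with DMSO, 4210 and 4042 CPM with CCF642, and 2921 and 2962 CPM with CCF642-34, so that like HSPA5 it was lower with CCF642-34 than with CCF642 (log2 difference −0.53, limma adjusted p = 5.65e-18). Of the 11, 5 were lower and 2 higher with CCF642-34 than with CCF642, where 17.4% and 15.9% of all genes were. Besides HERPUD1, the lower ones were MBTPS1 (−0.42), EIF2AK3 (−0.37), XBP1 (−0.13) and ERN1 (−0.096). XBP1 holds an exact ERSE in 1 of its 2 windows, and MBTPS1, EIF2AK3 and ERN1 hold neither ERSE nor ERSE-II. Whether an element goes with this difference was not tested. ATF6 mRNA fell with both compounds (−0.22 and −0.18), as did that of the protease MBTPS2, which cleaves ATF6 (−0.79 and −0.34). XBP1 mRNA was at 1368 and 1358 CPM with DMSO, 1391 and 1389 CPM with CCF642, and 1316 and 1311 CPM with CCF642-34. After TMM scaling its log2 fold change was 0.16 with CCF642 (limma adjusted p = 5.48e-05) and 0.037 with CCF642-34 (limma adjusted p = 0.37). The size of the CCF642 value depends on that scaling. With library size alone, 7 of the 11 regulators rose and 2 fell with CCF642, and 6 rose and 2 fell with CCF642-34. The counts do not show the splicing of XBP1 or the cleavage of ATF6.

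Chaperones of the same families in other compartments were not still. Of 8 paralogs, 5 rose and 3 fell with CCF642 (median 0.52), and 5 rose and 2 fell with CCF642-34 (median 0.28). The mitochondrial HSPA9 rose by 1.12 and 0.9997, nearly as far as HSPA5 or further, and the cytosolic HSPA8 by 0.84 and 0.40. The cytosolic HSP90 genes HSP90AA1 (0.82 and 0.26) and HSP90AB1 (0.58 and 0.32) rose further than HSP90B1, so that the ratio of HSP90B1 to HSP90AB1 reads fell from 1.15 in each DMSO library to 0.883 and 0.904 with CCF642 and 0.943 and 0.990 with CCF642-34. The mitochondrial TRAP1 fell with both (−0.21 and −0.22). Of the cyclophilins, PPIA fell by 0.28 with CCF642 and had −0.044 with CCF642-34 (limma adjusted p = 0.298), PPIF fell with both (−0.35 and −0.59), and PPID rose with both (0.46 and 0.30). Larger increases with CCF642 than with CCF642-34 were tested directly and passed for HSPA8 (log2 difference −0.44, limma adjusted p = 5.24e-15), HSP90AA1 (−0.57, limma adjusted p = 1.64e-18) and HSP90AB1 (−0.26, limma adjusted p = 1.39e-08), as for HSPA5. They also passed for HSPA9 (−0.12, limma adjusted p = 0.00746) and PPID (−0.16, limma adjusted p = 0.0491). Of the 8 paralogs, 6 were lower and 1 was higher with CCF642-34 than with CCF642, where 17.4% and 15.9% of all genes were.

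**Figure D5:**
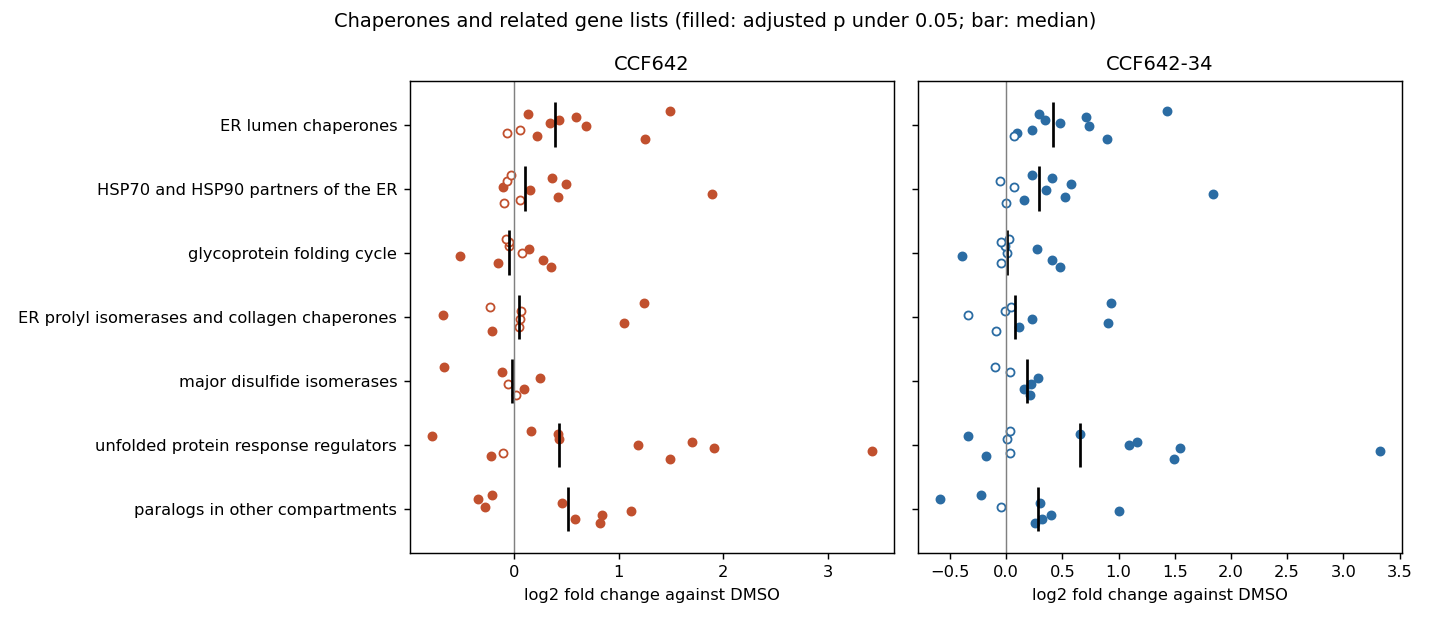
Log2 fold changes against DMSO after TMM scaling for each gene (points; filled at a limma adjusted p under 0.05) of the ER lumen chaperones and 6 related lists, with the median of each list (black bars), for CCF642 (left) and CCF642-34 (right). The chaperones have medians of 0.39 and 0.41, and the disulfide isomerases −0.016 and 0.19. With library size alone the medians of the partners and of the prolyl isomerases turn below 0 with CCF642. Those of the glycoprotein folding cycle (−0.079) and of the prolyl isomerases (−0.0033) do so with CCF642-34.

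The genes whose pattern was most like that of HSPA5 were sought by the root mean square difference between log2 profiles, each set to its own DMSO mean, over the 6 libraries. They were LYSMD3, PGM3, ZBTB43, CCDC186 and GOLGB1, with differences of 0.0373 to 0.0460 log2 units. None of the 10 chaperones was allowed in this search, and with 3 groups of 2 libraries many profiles of like size resemble each other.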

How the data were processed

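RNA of 6 MM1.S samples, 3 groups of 2, was enriched with oligo(dT) and made into cDNA with random hexamers. The authors deposited CPM, reads per gene divided by the library total, without log transformation, for 11048 symbols, which hold 99.9% of the reads. The unit was read from the values. The submitters' processing notes name STAR, edgeR (3.24.3), limma (3.38.3) and hg19, without their roles; the counting tool, annotation, use of strand and filter on low genes are not given in the sources used here. A table of the whole series repeats these values.

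CPM values were scaled by TMM (edgeR 4.0.16), log2-transformed with a pseudocount of 1 and fitted with limma 3.58.1 (R 4.3.3, variance trend, 3 groups together, no replicate block). All 3 comparisons were two-sided, with Benjamini-Hochberg adjustment over all genes. Fold changes on this scale understate those of low genes. Whole reads, recovered within a tolerance of 0.02 reads, served the edgeR and DESeq2 (1.42.0) alternatives. The labels do not say whether the libraries came from separate cultures, so p-values measure only the spread between these libraries, which may be technical. That spread is mostly shared: limma drew each gene's variance toward a trend over all genes, with 42.9 prior against 3 residual degrees of freedom. A gene whose own replicates lie far apart, such as SDF2L1, can therefore have a small p-value. The replicates were not the same counts deposited again, since the chi-square per degree of freedom between them was 2.30 to 4.64, above sampling alone. This value cannot tell repeat sequencing of a single RNA from separate cultures. The script was tested on simulated data. GENCODE 29 (GRCh38) gave positions and lengths and RefSeq (GRCh38.p14) promoters, both matched by symbol, since the deposited table has no coordinates. Exons of other genes overlap further named genes too, HSP90B1, CALR, CANX, HYOU1, DNAJB9 and DDIT3 among them. Reads of those overlaps cannot be told apart either, since use of strand is not given. Protein sequences were not used here.

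The chaperones, the gene lists, the thresholds and the alternatives were chosen with earlier results of these data known. The named genes are all 10 chaperones, chosen partners, regulators and paralogs, for each list and compound up to 2 largest increases and 2 largest decreases at an adjusted p under 0.05, and the 5 profiles nearest to that of HSPA5; the search with the mean profile of the chaperones is not reported here. Alternatives were library size alone, DESeq2 size factors, pseudocounts of 0.1 and 4, a mean CPM of at least 5, edgeR's quasi-likelihood test, DESeq2's Wald test, separate fits for each comparison, a replicate block and the removal of each library.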

Additional observations from a re-analysis of the deposited data

Results flagged for a closer look

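For CALR, the compounds lay on opposite sides of DMSO in the fitted values, at −0.070 with CCF642, which did not pass (limma adjusted p = 0.0768), and 0.096 with CCF642-34 on the log2 scale. The difference itself was tested in the fit of CCF642-34 against CCF642 and was 0.17 (limma adjusted p = 0.00019), a 12.2% higher level with CCF642-34. It passed under every alternative run, with values from 0.13 to 0.21 and limma, edgeR or DESeq2 adjusted p values from 5.15e-07 to 0.0146. In CPM, both CCF642 libraries (1254 and 1190) were below all 4 other libraries (1402 to 1426).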

How the results depend on the processing

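Of 450 values of single chaperones under the alternatives, 423 kept their direction and their side of the threshold, 10 no longer passed, 12 newly passed and 5 changed sign. With library size alone, the number of chaperones raised at least 1.5-fold by CCF642 went from 4 to 2, because HYOU1 (0.55) and MANF (0.46) came under that size, and the log2 fold changes of CANX with CCF642 (−0.074) and of HSP90B1 with CCF642-34 (−0.022) changed sign. With 1 library left out at a time, where the lone library of a group is assumed to vary like the others, the number of chaperones called ranged from 7 to 10 with CCF642, from 8 to 10 with CCF642-34 and from 3 to 6 between the compounds, the 3 coming from the fit without CCF642-34 replicate 1, while the number of all genes called ranged from 6005 to 6889, from 5245 to 6764 and from 2470 to 3540. In the direct comparison the leave-one-out values ranged from −0.027 to 0.30 for SDF2L1, from −0.20 to 0.030 for CRELD2 and from −0.15 to 0.034 for FICD. HSP90B1 with CCF642-34 newly passed when only DMSO and CCF642-34 were fitted (0.064, limma adjusted p = 0.0303), without CCF642 replicate 1 or 2 (limma adjusted p = 0.0159 and 0.0163) and without CCF642-34 replicate 1 (0.11, limma adjusted p = 0.0358), and CANX with CCF642 newly passed without CCF642 replicate 1 (0.11, limma adjusted p = 0.00205). The cause was not tested. Replicate numbers are shared between the groups, but deviations of same-numbered libraries had correlations of −0.052, −0.11 and 0.14 over 8422 genes, so the numbers were not taken to pair the libraries. The replicate block gave 8, 9 and 5 called chaperones, as without it, and 7014, 6422 and 3802 called genes in place of 6974, 6362 and 3685. A block with the DMSO numbers exchanged, chosen after seeing the data, called 10 chaperones and 6580 genes with CCF642-34. Library size alone moved the share of higher calls among all called genes from 50.4% to 34.8% with CCF642, from 51.6% to 38.6% with CCF642-34 and from 47.8% to 61.8% between the compounds. Only FICD, SDF2L1 and CRELD2 had a library with fewer than 2282 reads.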
